A study of Arabidopsis thaliana x Arabidopsis lyrata and Arabidopsis thaliana x Arabidopsis halleri with 18 samples.

Results

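In F1 hybrids of *Arabidopsis thaliana* with *Arabidopsis lyrata* and with *Arabidopsis halleri*, 77 of the 16419 genes measured passed a rule for a leading non-thaliana allele in both crosses. The allele ratio r was the log2 of the non-thaliana value over the thaliana value in 1 plant. A gene was included when its mean r was at least 1.5 over the 9 plants of each cross, r was above 0 in all 18 plants, and the mean of the summed alleles was at least 30 in each cross. That level was reached by 7255 genes, and 45 of them met the same conditions with the alleles exchanged. The genes were selected on these mean ratios and mean sums, so their levels are given below as a description with no test. Tests are given for differences between treatments or hybrids.

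Each plant was an F1 of the *A. thaliana* accession Col-0, either with the *A. lyrata* accession MN47 or with the *A. halleri* line h2.2. The 6 groups were lyrata-labelled and halleri-labelled plants under standard conditions, after cold or after dehydration. Standard plants were at 22 °C. Cold lasted 1 h at 4 °C, and dehydration lasted 1 h at 22 °C. Both stresses were given in dim light. Each group held 3 plants aged 4 weeks, with 1 plant per library. The listed growth conditions were the same for all plants. Stratification took 5 days at 4 °C, days were 16 h long and nights 8 h long. The agar, at 0.8%, contained sucrose at 1%. RNA came from the whole aerial part, but the labels call the standard material leaf samples, so treatment cannot be told apart from a difference in light or in the tissue taken.

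An F1 nucleus holds both parental copies of a gene in the same set of transcription factors. A difference between the copies in such a nucleus is known to arise from sequence or chromatin linked to the gene, and an apparent one can come from how reads of each copy are assigned, and these cannot be told apart here. *A. lyrata* and *A. halleri* are outcrossing relatives of *A. thaliana*, and *A. halleri* is known for tolerating and accumulating zinc and cadmium. Dehydration and cold act in leaves in part through the hormone abscisic acid and through the CBF transcription factors, which bind short elements in promoters.

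The deposited values are read numbers scaled to a near-equal total per library, from 1524104 to 1531268, with 1 added to each allele. Column headers name the other relative than the labels do in all 18 files, so plants are called by their labels and the allele is called non-thaliana. The thaliana allele held 49.14% to 51.07% of the total in 17 libraries and 61.03% in lyrata-labelled dehydration replicate 2. In that library the median r of the 77 genes was 1.93, against 2.18 to 2.70 in the other 17, and the median r of the 7255 genes was -0.69. Lyrata-labelled standard replicate 1 and halleri-labelled cold replicate 1 also stood apart, with the lowest and highest scaling factors of 0.772 and 1.17. Their mean correlations with the other plants of their group were 0.717 and 0.74. Halleri-labelled standard replicate 1 had the lowest such correlation, 0.715, but was not set apart. Summed leaf photosynthesis markers ranged from 11497 to 26014 after cold, 44427 to 66792 after dehydration and 20660 to 98711 under standard conditions in lyrata-labelled plants. In halleri-labelled plants they ranged from 22467 to 37432, 50769 to 95908 and 61463 to 83659, in the same order. The 4 floral markers summed to 18.5 to 37.9 in halleri-labelled standard plants and to at most 11.6 in the other groups. The 4 root markers summed to 8.6 to 61.4 in dehydrated lyrata-labelled plants, to at most 58.0 in halleri-labelled cold plants and to at most 7.1 elsewhere. The part of these markers in the results was not tested. In bulk tissue, fewer cells of a type and less RNA per cell cannot be told apart.

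Across the 77 genes, mean r had a median of 2.40 in lyrata-labelled plants and 2.72 in halleri-labelled plants, with highest values of 7.04 and 5.48. The mean was higher in halleri-labelled plants for 44 genes and in lyrata-labelled plants for 33. The thaliana allele gave 11.3% to 20.0% of the summed values of these genes per plant. It was above 0 in all 18 plants for 41 genes, at 0 in 1 to 8 plants for 27 genes and at 0 in 9 or more plants for 9 genes. The thaliana allele was thus read in every plant for most of the genes, at a lower value than the other. In some plants the lead was only 1 against 0, as for AT3G57010 and BG3 in 1 halleri-labelled plant each.

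**Figure D1:**
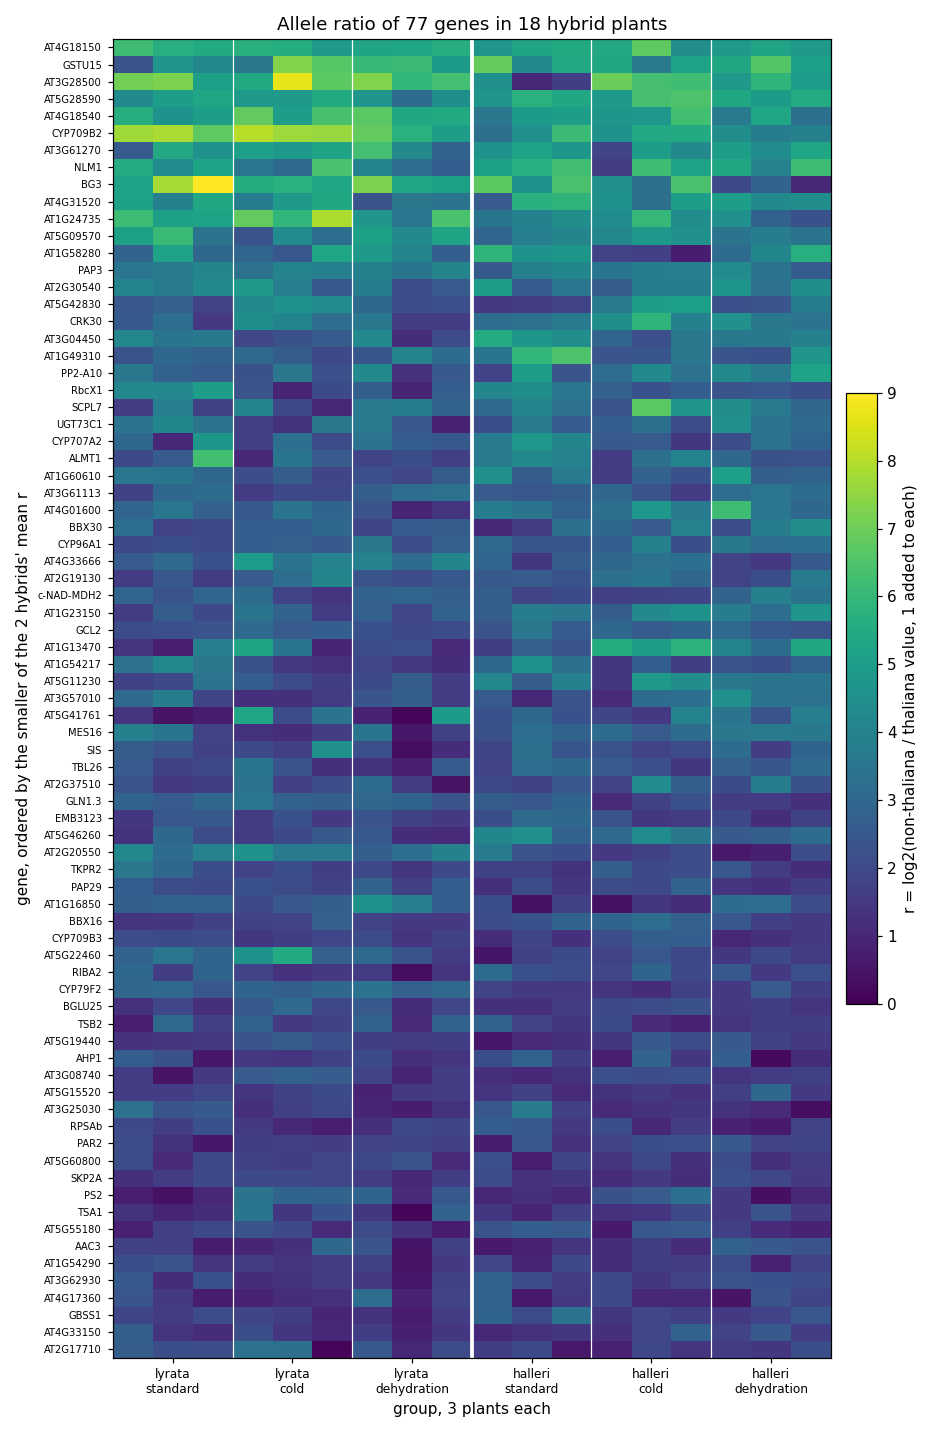
Allele ratio r (colour, log2 of non-thaliana over thaliana value with 1 added to each) of the 77 genes (rows) in 18 plants (columns, 3 per group; the thick line separates the hybrids). Rows are ordered by the smaller of the means of both hybrids, so the strongest ratios lie at the top, and CYP709B2 and BG3 stand out as brighter in lyrata-labelled plants.

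The gene with the highest ratio in its weaker hybrid was AT4G18150, annotated as a putative serine/threonine kinase of the DUF1296 family, with mean r of 5.52 ± 0.37 (SD, n = 9) in lyrata-labelled and 5.23 ± 0.68 (SD, n = 9) in halleri-labelled plants. Its non-thaliana allele read 21 to 109 in the 18 plants, and its thaliana allele read 1 in 2 lyrata-labelled cold plants and 0 in all others. AT5G28590, annotated as a DNA-binding family protein, and AT4G18540, an uncharacterized protein, had the same pattern. Their thaliana alleles never exceeded 1, while the non-thaliana alleles read 17 to 89 and 9 to 166. These values were scaled, so the number of reads behind a value of 0 is not known exactly.

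GSTU15, a glutathione transferase of the tau class, which joins glutathione to foreign and stress-derived compounds, had a mean r of 5.08 ± 1.59 (SD, n = 9) and 5.32 ± 0.99 (SD, n = 9) in lyrata-labelled and halleri-labelled plants. CYP709B2, a cytochrome P450 monooxygenase, reached 7.04 ± 1.03 (SD, n = 9) in lyrata-labelled plants and 4.63 ± 0.91 (SD, n = 9) in halleri-labelled plants. Its thaliana allele read 0 to 9 where the non-thaliana allele read 53 to 522 in the lyrata-labelled plants. BG3, a β-1,3-glucanase of the kind induced in defence, had means of 6.26 ± 1.43 and 4.22 ± 2.07 (SD, n = 9 each), and its non-thaliana values spread from 1 to 1110. NLM1, a NOD26-like aquaporin, had means of 4.24 ± 1.26 and 5.06 ± 1.48 (SD, n = 9 each). AT3G28500, an acidic protein of the large ribosomal subunit, had means of 6.64 ± 1.09 and 4.71 ± 2.07 (SD, n = 9 each), and in halleri-labelled standard replicate 2 only 1 non-thaliana and 0 thaliana reads were listed.

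The remaining genes among the 12 highest were AT3G61270 (a DUF821 glucosyltransferase-like protein), AT4G31520 (SDA1 family), AT1G24735 (a methyltransferase) and AT5G09570 (a Cox19-like protein of the kind found in mitochondria), followed by AT1G58280 (a phosphoglycerate mutase-like protein) and PAP3. AT1G24735 had mean r of 5.76 and 4.04, AT5G09570 of 4.37 and 3.91, and AT1G58280 of 3.70 and 3.60. PAP3, a purple acid phosphatase, had means of 3.79 ± 0.27 and 3.57 ± 0.62 (SD, n = 9 each). Its thaliana allele was never at 0, reading 5 to 43, and its non-thaliana allele read 34 to 541.

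**Figure D2:**
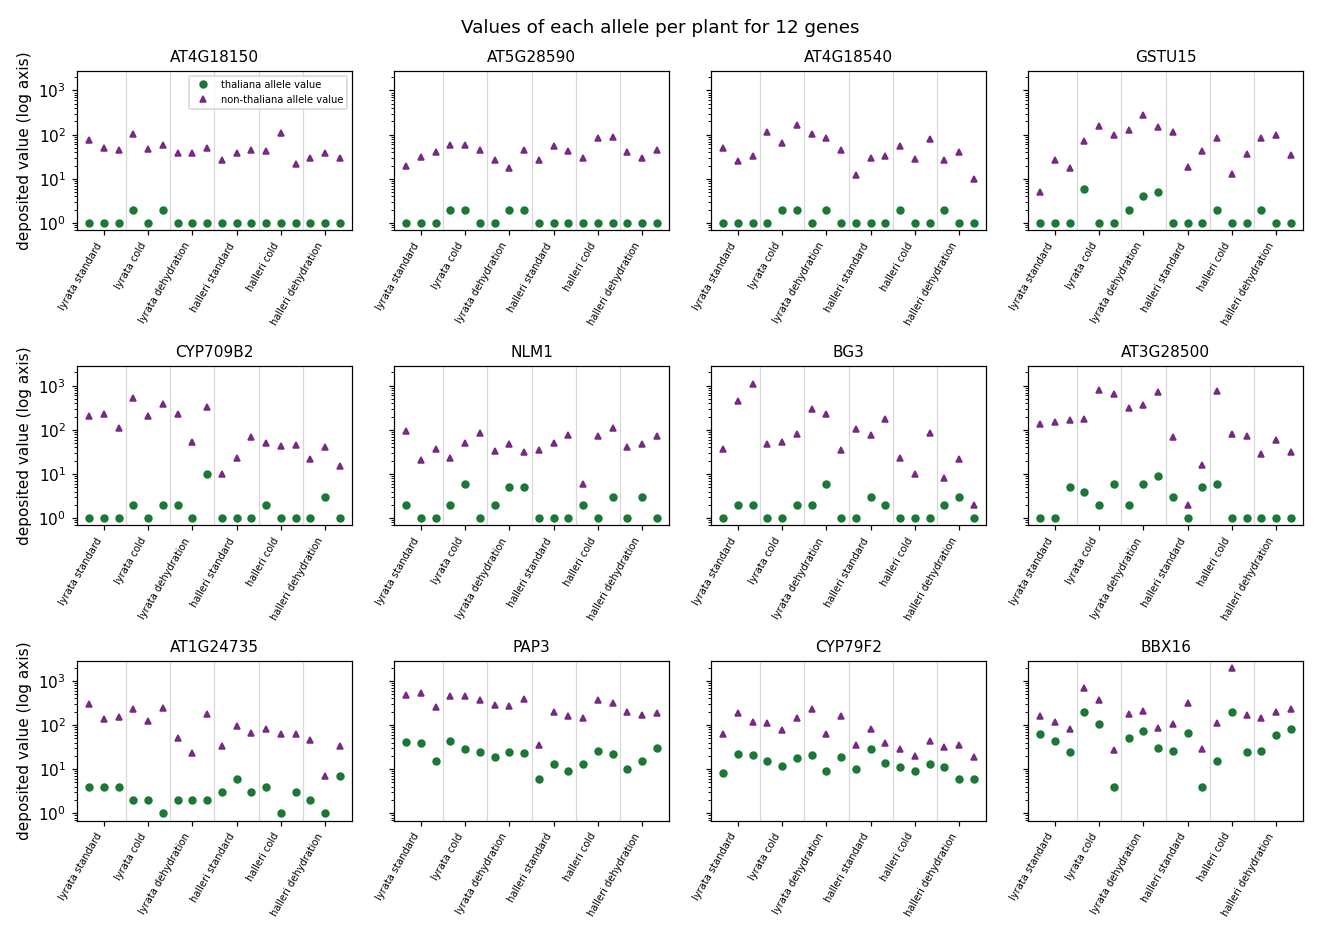
Deposited value of each allele (log axis, 1 added to each as deposited) in the 18 plants for 12 of the genes, 3 plants per group. The thaliana allele (circles) of AT4G18150, AT5G28590 and AT4G18540 lies at 1 or 2, which is a reading of 0 or 1, while PAP3, CYP79F2 and BBX16 have a thaliana value above 1 in every plant.

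Near the threshold of 1.5, AT2G17710 had means of 2.15 and 1.51 and AT4G33150 of 1.52 and 1.74. GONST1, a Golgi nucleotide-sugar transporter, with 1.96 and 1.4967, and the bHLH gene AT4G01460, with 1.67 and 1.45, fell just outside. The ratios of the 77 genes thus formed a continuous range down to the threshold.

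Most of these genes were of moderate expression. Per kilobase of annotated transcript, the summed value had a median of 60.9 over the 77 genes and 45.6 over the 7255 genes of the same minimum level, and it ranged from 10.4 to 675. The highest level per kilobase was that of AT3G08740, an elongation factor P family protein, which on summed values averaged 641 in lyrata-labelled and 706 in halleri-labelled plants. Next per kilobase came AT4G33666, a short uncharacterized protein, at 424 and RbcX1, a chaperone of Rubisco assembly, at 416. The lowest was AT5G46260, a TIR-NBS-LRR disease resistance protein, at 10.4. AT3G08740 lay close to the threshold, with mean r of 1.78 and 1.63, so a high level did not go with a high ratio in that gene.

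By annotated product, metabolic enzymes made up the largest named classes. There were 7 cytochrome P450 and other redox enzymes (9.09% of the 77 genes, against 4.18% of the 7255), 7 transferases (9.09% against 5.09%) and 7 hydrolases (9.09% against 7.32%). Another 7 genes were of unknown function (9.09% against 4.33%), and 32 genes fell in no class (41.56% against 56.37%). Smaller classes were kinases (3.9% against 5.86%), transcription factors (3.9% against 4.37%) and transporters (3.9% against 4.08%). Further ones were ubiquitin and F-box (3.9% against 3.16%), ribosome and translation (3.9% against 2.37%), RNA processing (2.6% against 2.65%) and resistance proteins (1.3% against 0.25%). Classes were set by keywords in the product name and do not always follow function. GBSS1, a starch synthase, is counted under transferases and also, by a false match, under hydrolases. PAP3, PAP29, PS2 and BG3 fell in no class. These shares are a description, and no class was tested for enrichment. No gene had a photosynthesis or chloroplast keyword in its product name, against 2.08% of the 7255 genes, and RbcX1, a chaperone of Rubisco, carried none of these keywords.

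The P450 group held enzymes with known hormone and defence roles. CYP707A2 is an abscisic acid 8'-hydroxylase, which breaks down the hormone, and had mean r of 2.71 and 3.07. CYP79F2, which acts at the start of aliphatic glucosinolate synthesis, had 2.94 ± 0.28 and 1.66 ± 0.40 (SD, n = 9 each). Its thaliana allele read 7 to 21 in lyrata-labelled and 5 to 27 in halleri-labelled plants, and its non-thaliana allele 60 to 225 and 18 to 80. CYP709B3, related to CYP709B2, had 1.84 and 1.73, and CYP96A1 had 2.52 and 2.99. CYP79F2 was the only one of the 77 genes on any of the pathway lists examined, among 10 glucosinolate genes in the files. None of the 24 abscisic acid, 18 clock, 11 cold, 16 metal homeostasis and 8 jasmonate list genes in the files was among the 77. Only 16, 14, 9, 6 and 7 of them, in that order, reached the minimum level. With 77 of 7255 genes of that level included, lists this short say little about these pathways. CYP707A2 was not on the abscisic acid list used.

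Further enzymes and carriers are grouped here by hand, with no test. PAP3 and PAP29 are purple acid phosphatases, and PS2 encodes a pyrophosphatase induced by phosphate starvation, with PAP29 at mean r of 2.24 and 1.78 and PS2 at 1.99 and 1.58. ALMT1, the malate channel of aluminium tolerance in roots, had 2.64 and 3.17. GLN1.3, a cytosolic glutamine synthetase, had 2.85 and 1.95, and AT4G33150, the bifunctional enzyme that begins lysine breakdown, had 1.52 and 1.74. c-NAD-MDH2, a cytosolic malate dehydrogenase, had 2.56 and 2.47, and AAC3, a mitochondrial carrier that exchanges ADP for ATP, had 1.56 and 1.61. GBSS1, the granule-bound starch synthase that makes amylose, had 1.52 and 2.13. MES16, a methyl esterase of chlorophyll breakdown, had 2.14 and 3.14, and TSB2, a β subunit of tryptophan synthase, had 2.04 and 1.65.

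Regulators were fewer. BBX16 and BBX30 are B-box zinc finger proteins, a family of light and circadian regulators, with mean r of 1.75 and 2.42 for BBX16 and of 2.52 and 2.87 for BBX30. PAR2, a small protein of the shade avoidance response, had 1.60 and 1.87, and AHP1, which passes phosphate in cytokinin signalling, had 1.63 and 1.75. The kinase class held CRK30, a cysteine-rich receptor kinase, at 2.87 and 4.02, and AT2G19130, an S-locus lectin kinase, at 2.49 and 2.77. The ubiquitin class held SKP2A, an F-box protein, at 1.66 and 1.58, AT3G25030, a RING protein, at 1.79 and 1.60, and SIS, annotated as RLIM-like, at 2.07 and 2.39. BBX16 had the largest single sum of these regulators, with 1916 non-thaliana and 201 thaliana in halleri-labelled cold replicate 2.

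Other enzymes and carriers completed the classes. SCPL7, a serine carboxypeptidase-like protein, had mean r of 2.74 and 3.92, and UGT73C1, a glucosyltransferase that acts on small molecules, had 2.74 and 3.08. UGT73C1 read 392 from the non-thaliana and 35 from the thaliana allele in lyrata-labelled standard replicate 1, while its non-thaliana allele read 8 to 58 in the other 17 plants. AT5G11230, a nucleotide-sugar transporter family protein, had 2.22 and 3.56, and its non-thaliana allele read 403 and 384 in halleri-labelled cold replicates 2 and 3 but 32 in replicate 1. RPSAb, a protein of the small ribosomal subunit, had 1.60 and 1.64. The RNA-binding class held EMB3123, a pentatricopeptide repeat protein, at 1.93 and 2.06, and AT2G37510 at 2.00 and 2.58.

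The upstream sequences of 5 genes are shown, chosen after their values were seen. They are the 3 genes called higher in dehydrated halleri-labelled plants, the 1 gene called in dehydrated lyrata-labelled plants, and CYP709B2, which differed between the hybrids. The sequences are the 250 bases before the annotated start in the Col-0 genome (TAIR10.1), written 5′ to 3′ on the strand of the gene, and so belong to the allele that was read less. Capitals mark any match, on either strand, to the ABRE core ACGTG, the G-box CACGTG (which contains an ABRE core), the CRT/DRE core CCGAC, the evening element core AATATCT, the W-box core TTGAC or TATAAA. GSTU15 is at chr1:21929760-21930009 (plus strand), AT3G57010 at chr3:21097482-21097731 (minus), BBX30 at chr4:8708591-8708840 (plus), RbcX1 at chr4:2118618-2118867 (minus) and CYP709B2 at chr2:19291633-19291882 (minus), and no other annotated gene overlaps these windows. The upstream sequences of the other parent were not analysed here.
GSTU15: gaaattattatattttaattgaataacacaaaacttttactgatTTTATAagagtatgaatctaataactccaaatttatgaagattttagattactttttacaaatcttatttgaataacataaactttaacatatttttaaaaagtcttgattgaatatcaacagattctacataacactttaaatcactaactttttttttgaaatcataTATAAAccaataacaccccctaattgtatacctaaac
AT3G57010: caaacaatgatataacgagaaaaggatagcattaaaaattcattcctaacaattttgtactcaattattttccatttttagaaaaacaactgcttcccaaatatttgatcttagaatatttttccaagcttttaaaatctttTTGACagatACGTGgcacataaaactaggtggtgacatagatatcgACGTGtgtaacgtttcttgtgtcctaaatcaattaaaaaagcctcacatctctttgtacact
BBX30: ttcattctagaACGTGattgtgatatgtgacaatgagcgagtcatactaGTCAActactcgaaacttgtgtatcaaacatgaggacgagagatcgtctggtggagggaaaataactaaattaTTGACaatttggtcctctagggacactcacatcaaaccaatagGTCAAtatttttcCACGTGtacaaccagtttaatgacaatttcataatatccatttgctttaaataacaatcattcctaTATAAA
RbcX1: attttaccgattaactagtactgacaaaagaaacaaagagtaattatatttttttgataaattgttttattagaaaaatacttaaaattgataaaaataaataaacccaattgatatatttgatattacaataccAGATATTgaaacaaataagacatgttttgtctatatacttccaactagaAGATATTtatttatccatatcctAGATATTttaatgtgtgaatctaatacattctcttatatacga
CYP709B2: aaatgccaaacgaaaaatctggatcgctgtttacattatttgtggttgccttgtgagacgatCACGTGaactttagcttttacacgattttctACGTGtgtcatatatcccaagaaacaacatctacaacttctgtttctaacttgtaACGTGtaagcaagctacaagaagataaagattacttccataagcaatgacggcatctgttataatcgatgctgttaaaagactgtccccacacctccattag

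In these letters the GSTU15 window holds a TATAAA match on each strand. AT3G57010 holds ABRE cores and a W-box core, and BBX30 holds ABRE cores, a G-box, W-box cores and a TATAAA match. RbcX1 holds evening element cores, and CYP709B2 holds a G-box and ABRE cores. Over the 77 genes, the ABRE core was present in 26.0% of windows against 23.6% of 7251 windows of genes with the same minimum level. The G-box was present in 3.9% against 8.2%, the CRT/DRE core in 14.3% against 13.7%, the evening element core in 7.8% against 10.3%, the W-box core in 41.6% against 43.9% and TATAAA in 49.4% against 45.5%. A match is a description of these letters, not evidence of a bound site.

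Total expression was tested on the sum of both alleles, scaled per library, with limma across all 12921 genes that passed a filter of 10 in at least 3 libraries and a call at a Benjamini-Hochberg adjusted p below 0.05. All 77 genes were tested, and since they were required to have a mean sum of 30, the share called is also given among the 7255 genes of that level. Log2 differences are on the scale of log2(sum + 2), which understates the change of low genes. The comparisons with standard plants share their control plants within a hybrid.

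After dehydration of halleri-labelled plants, BBX30, AT3G57010 and RbcX1 were higher and AT5G22460, AT4G33150 and AT1G54290 lower. These were the 6 of the 77 genes that passed the test (7.79%), where 3.03% of all genes and 3.09% of the 7255 were called, with 2.08% of all genes called higher and 0.944% lower. In lyrata-labelled plants 1 gene passed, GSTU15, where 0.426% of all genes and 0.455% of the 7255 were called. The median log2 difference of the 77 genes was -0.02 in halleri-labelled and -0.01 in lyrata-labelled plants, against 0.02 and 0.04 for all genes. In 5 of the 6 dehydration libraries, steps in the values gave implied totals of 927754 to 1434632 reads, below the deposited totals, and no such steps were found in other groups. The part of depth in these results was not tested.

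BBX30 had the largest called rise. Its TMM-scaled sum was 124, 132 and 93.1 in dehydrated halleri-labelled plants and 4.6, 1.8 and 8.0 in standard ones. All dehydrated plants lay above all standard plants. The gene reached the mean sum of 30 in halleri-labelled plants only through the dehydrated plants, so a rise was in part set by the selection. The log2 difference was 4.21 ± 0.78 (SE; limma, adjusted p = 0.00716), and it passed under all 13 alternatives, with adjusted p of 0.00192 to 0.0388. In lyrata-labelled plants the sum was 225, 105 and 68.1 after dehydration and 109, 6.6 and 8.0 in standard plants, where replicate 1, which stood apart, overlapped the dehydrated plants. The log2 difference there was 2.49 ± 0.78 (SE; limma, adjusted p = 0.114). On the non-thaliana allele of halleri-labelled plants the values were 94, 125 and 85 against 3, 2 and 9, and on the thaliana allele 21, 8 and 3 against 1, 0 and 0, so each allele was higher after dehydration.

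AT3G57010, annotated in the calcium-dependent phosphotriesterase superfamily that includes strictosidine synthase-like proteins, rose after both treatments in halleri-labelled plants. Its sum was 5.8, 0.9 and 3.6 in standard plants, 43.5, 31.0 and 39.5 after cold, and 23.7, 70.4 and 69.8 after dehydration. Neither treated group overlapped the standard group. The log2 difference was 3.35 ± 0.59 after dehydration (SE; limma, adjusted p = 0.00536) and 2.99 ± 0.59 after cold (SE; adjusted p = 0.0198), and both rest on the same low standard plants. The dehydration call held under all 13 alternatives, with adjusted p up to 0.0499. The cold call ended without cold replicate 2 or 3 or standard replicate 2 or 3 (adjusted p of 0.0570 to 0.108). In lyrata-labelled plants the sums were 46.6, 12.3 and 31.0 in standard, 18.3, 13.2 and 13 after cold, and 31.2, 35.9 and 95.9 after dehydration, and those groups overlapped.

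RbcX1 rose after dehydration in halleri-labelled plants, from 127, 40.7 and 120 to 455, 446 and 475. The groups did not overlap. The log2 difference was 2.39 ± 0.60 (SE; limma, adjusted p = 0.0350), and the call ended without any 1 of the 3 dehydrated plants or without standard replicate 2 or 3 (adjusted p of 0.0696 to 0.164). In lyrata-labelled plants the sums were 386, 387 and 168 in standard and 129, 307 and 176 in dehydrated plants, with a log2 difference of -0.61 ± 0.60 (SE; limma, adjusted p = 0.622). The difference between the hybrids' dehydration changes was 3.00 ± 0.85 (SE; limma, adjusted p = 0.310).

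AT5G22460, AT4G33150 and AT1G54290 fell after dehydration in halleri-labelled plants. AT5G22460, an alpha/beta hydrolase, read 31.2, 86.7 and 134 in standard and 14.0, 3.0 and 6.3 in dehydrated plants. All dehydrated plants were lower, by a log2 difference of -3.08 ± 0.59 (SE; limma, adjusted p = 0.00737), and the call ended without dehydration replicate 2 or standard replicate 3 (adjusted p = 0.0554 and 0.0584). In lyrata-labelled plants it read 102, 46.3 and 82.0 against 18.3, 10 and 17.3 without overlap, with a log2 difference of -2.17 ± 0.59 (SE; adjusted p = 0.0849).

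AT4G33150, the lysine breakdown enzyme, read 224, 257 and 342 in standard and 36.7, 57.5 and 28.6 in dehydrated halleri-labelled plants. The groups were far apart, with a log2 difference of -2.72 ± 0.70 (SE; limma, adjusted p = 0.0391). The call ended without any 1 of the 3 dehydrated plants or without standard replicate 2 or 3 (adjusted p of 0.0797 to 0.147). After cold it read 52.1, 55.4 and 67.5, also below all standard plants, with a log2 difference of -2.18 ± 0.70 (SE; adjusted p = 0.147). AT1G54290, a translation initiation factor of the SUI1 family, read 63.6, 94.9 and 98.9 in standard and 20.5, 8.9 and 26.4 in dehydrated plants. Its log2 difference was -2.17 ± 0.58 (SE; limma, adjusted p = 0.0451), and the call ended without any 1 of the 3 dehydrated plants or standard replicate 2 or 3 (adjusted p of 0.0662 to 0.190). A related gene, AT4G27130, has 86.6% identity over the coding sequence of AT1G54290, and how reads were divided between them was not tested.

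GSTU15 was the 1 gene called after dehydration in lyrata-labelled plants. Its sum was 5.2, 23.6 and 17 in standard and 140, 279 and 145 in dehydrated plants. The groups did not overlap, and the log2 difference was 3.57 ± 0.71 (SE; limma, adjusted p = 0.0382). The call ended without dehydration replicate 1 or 2 or standard replicate 1 or 3 (adjusted p of 0.0747 to 0.141), and without the 3 libraries that stood apart it was 2.71 ± 0.79 (SE; adjusted p = 0.166). Most of the rise was read on the non-thaliana allele, an outcome that the selection on r favours. That allele read 4, 25 and 17 in standard and 129, 277 and 147 in dehydrated plants. The thaliana allele read 0 in all standard plants and 1, 3 and 4 in dehydrated plants. In halleri-labelled plants the sums were 133, 16.3 and 37.4 in standard and 89.5, 94.1 and 34.9 after dehydration, and these overlapped.

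**Figure D3:**
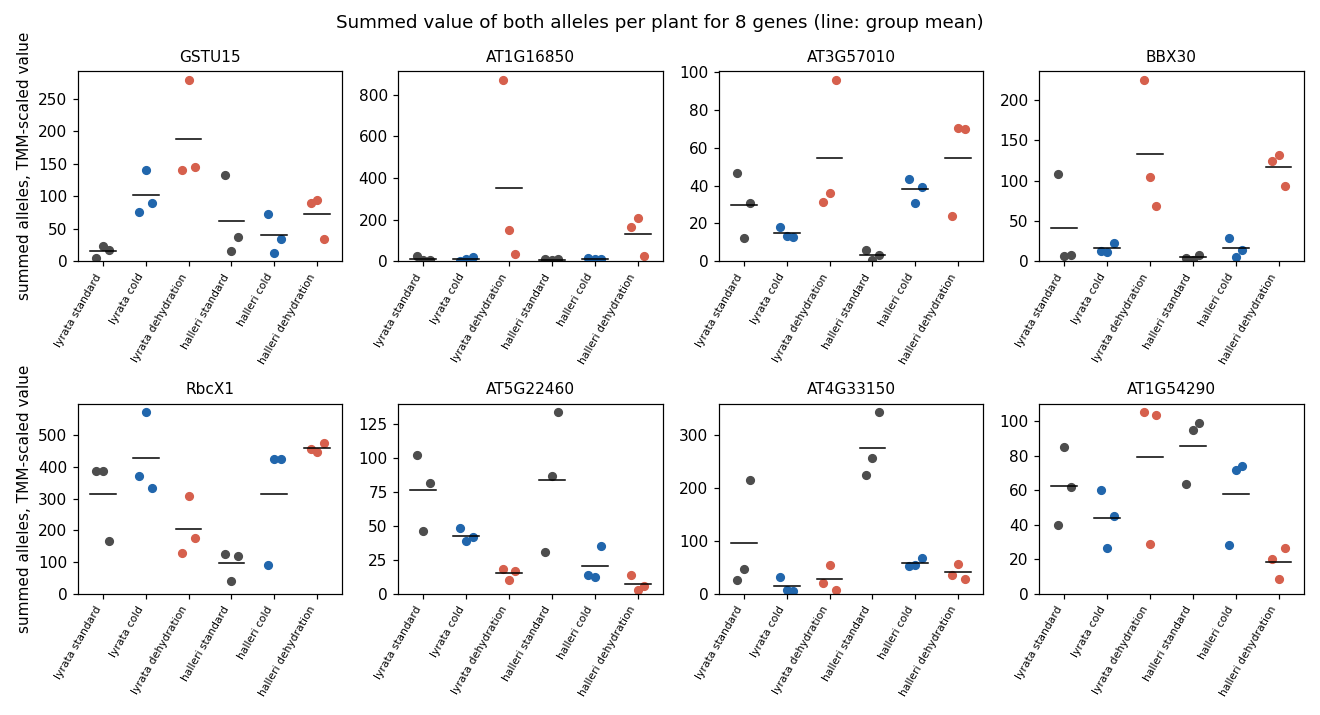
TMM-scaled sum of both alleles in each plant (points; line, group mean) for 8 genes in the 6 groups of 3 plants, each panel with its own linear axis from 0. BBX30, AT3G57010 and RbcX1 lie higher after dehydration in halleri-labelled plants, and AT5G22460, AT4G33150 and AT1G54290 lower.

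AT1G16850, an uncharacterized protein picked out after its values were seen, was high after dehydration in both hybrids without passing the test. Its sums were 871, 151 and 33.6 in dehydrated and 27.2, 5.7 and 6.0 in standard lyrata-labelled plants, and 166, 207 and 26.4 against 10.4, 4.5 and 9.8 in halleri-labelled plants. No dehydrated plant overlapped a standard plant of its hybrid, but the dehydrated plants differed widely. The log2 differences were 3.79 ± 0.92 (SE; limma, adjusted p = 0.0671) and 3.34 ± 0.92 (SE; adjusted p = 0.0529).

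Cold called fewer of the genes. In lyrata-labelled plants 0 of the 77 genes passed in limma, 16 (20.8%) had an unadjusted p below 0.05 against 15.2% of all genes, and 0.875% of all genes and 0.91% of the 7255 were called. The smallest p values were those of GSTU15, at 76.3, 141 and 89.9 after cold with a log2 difference of 2.73 ± 0.71 (SE; adjusted p = 0.0685), and of AT5G55180, a family 17 glycosyl hydrolase. AT5G55180 read 4.1, 11.4 and 33.4 after cold and 334, 85.9 and 38.0 in standard plants, without overlap, with a log2 difference of -2.89 ± 0.76 (SE; limma, adjusted p = 0.0709). It passed only without standard replicate 3 (adjusted p = 0.0479).

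In halleri-labelled plants AT3G57010 was the 1 gene called after cold (1.3%), where 0.751% of all genes and 0.882% of the 7255 were called. The median log2 difference of the 77 genes after cold was 0.13 in lyrata-labelled and 0.24 in halleri-labelled plants, against 0.06 and 0.03 for all genes. When the 3 libraries standing apart were left out, 4 of the 77 genes were called in halleri-labelled plants, where 1.46% of all genes were called.

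The change from standard was also compared between the hybrids. For cold, 0 of the 77 genes differed in limma, 6 (7.79%) had an unadjusted p below 0.05 against 7.75% of all genes, and 0.0155% of all genes and 0.0138% of the 7255 were called. The smallest p was that of AT3G57010, with a difference of 3.75 ± 0.83 (SE; adjusted p = 0.238) that passed only without halleri-labelled standard replicate 1 (adjusted p = 0.0236). GSTU15 had the next, at -3.14 ± 1.01 (SE; limma, adjusted p = 0.410). For dehydration, 0 of the 77 genes and 0% of all genes were called in limma, with 12 of the 77 (15.6%) at an unadjusted p below 0.05 against 9.76% of all genes. AT2G19130, the lectin kinase, had a difference of -3.82 ± 1.11 (SE; limma, adjusted p = 0.316). A response called in 1 hybrid was therefore not shown to differ from that in the other.

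**Figure D4:**
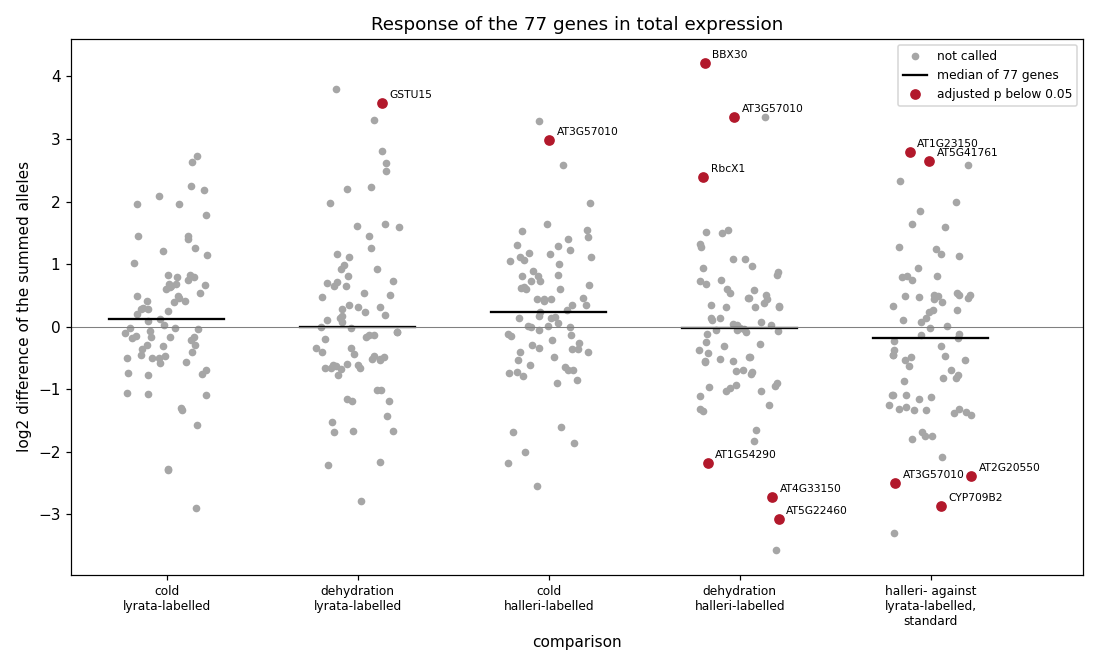
Log2 difference of the summed alleles (vertical axis) of each of the 77 genes (points, spread sideways at random) in 5 comparisons; red points passed an adjusted p below 0.05 in limma, and black lines are medians. The medians lie near 0, and the 6 called genes of dehydrated halleri-labelled plants range from -3.08 to 4.21.

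Under standard conditions, 5 of the 77 genes differed in total between the hybrids (6.49%), where 1.88% of all genes and 1.32% of the 7255 were called, with 0.488% of all genes higher and 1.39% lower. Lower in halleri-labelled plants were CYP709B2, AT2G20550 and AT3G57010, and higher were AT5G41761 and AT1G23150. CYP709B2 read 272, 218 and 109 in lyrata-labelled and 10.4, 19.9 and 61.5 in halleri-labelled plants, a log2 difference of -2.87 ± 0.69 (SE; limma, adjusted p = 0.0362). Its thaliana allele was at 0 in all 6 standard plants, so the difference lay in the non-thaliana allele, as the selection on r favours. AT2G20550, a DnaJ-like protein of the HSP40 family, read 274, 155 and 132 against 13.9, 74.1 and 32.1, a log2 difference of -2.38 ± 0.55 (SE; limma, adjusted p = 0.0306). AT2G20560 has 89.6% identity over 69% of its coding sequence.

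The uncharacterized genes AT5G41761 and AT1G23150 read 29.8, 32.1 and 24.0 and 12.9, 25.5 and 87.0 in lyrata-labelled standard plants. In halleri-labelled standard plants they read 210, 119 and 268 and 242, 174 and 281. Neither pair of groups overlapped, and the log2 differences were 2.65 ± 0.64 (SE; limma, adjusted p = 0.0377) and 2.79 ± 0.72 (SE; adjusted p = 0.0498). For AT3G57010 the log2 difference was -2.50 ± 0.59 (SE; limma, adjusted p = 0.0325). None of the 5 was called when the 3 libraries standing apart were left out (adjusted p of 0.0501 to 0.192), or without lyrata-labelled standard replicate 1 (adjusted p of 0.111 to 0.222). Leaving out any other standard library ended at least 1 of these calls (adjusted p of 0.0542 to 0.160).

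Allele ratios were compared between treatments within a hybrid, with limma on r over all genes with a mean sum of at least 10. The rule used the same r values, averaged over treatments, and its condition of r above 0 in every plant limits how far r could fall in any group. The counts below therefore stand beside the share of all genes only as a description, and nothing about the 77 genes as a set is read from them. In lyrata-labelled plants 0 of the 77 genes and 0% of 11697 genes were called after cold or after dehydration, while 13 and 7 of the 77 (16.9% and 9.09%) had an unadjusted p below 0.05, against 9.79% and 13.4% of all genes. In halleri-labelled plants 2 genes were called after cold (2.6%), where 0.978% of 11655 genes and 1.13% of the 7255 were called. After dehydration 1 gene was called (1.3%), where 2.05% of all genes and 2.01% of the 7255 were called.

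The smallest p values of lyrata-labelled plants did not pass. Over all 11697 genes, the change of r after dehydration in these plants had a median of -0.24, and 31.15% of genes had a positive change. After cold the median was -0.05. The dehydrated group includes replicate 2, where the median r of the 7255 genes was -0.69. PS2, the pyrophosphatase, had r of 3.46, 2.91 and 2.87 after cold and 0.77, 0.42 and 1.00 in standard plants, a difference of 2.35 ± 0.55 (SE; limma, adjusted p = 0.205). Its standard sums were low, with 40, 7 and 1 on the non-thaliana allele. AT1G54217, annotated in the ribosomal protein L18ae family, had r of 3.38, 4.17 and 3.58 in standard plants, 2.22, 1.51 and 1.3 after cold and 1.93, 1.49 and 1.18 after dehydration. Neither treated group overlapped the standard group, and the differences were -2.03 ± 0.50 and -2.18 ± 0.50 (SE; limma, adjusted p = 0.217 and 0.159). AT3G25030, the RING protein, had r of 3.36, 2.35 and 2.56 in standard and 0.93, 0.69 and 1.32 in dehydrated plants, a difference of -1.77 ± 0.47 (SE; limma, adjusted p = 0.193).

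AT1G58280, the phosphoglycerate mutase-like gene, had a lower ratio after cold in halleri-labelled plants. Its thaliana allele read 0, 0 and 0 in standard and 29, 3 and 9 in cold plants, while the non-thaliana allele read 58, 24 and 26 and 107, 12 and 15. Mean r was 5.09 ± 0.69 in standard and 1.41 ± 0.64 in cold plants (SD, n = 3 each), without overlap, a difference of -3.69 ± 0.70 (SE; limma, adjusted p = 0.0469). In lyrata-labelled plants the corresponding difference was -0.10 ± 0.96 (SE; limma, adjusted p = 0.982). AT5G42830, an acyltransferase of the HXXXD type, changed the other way, with a thaliana allele of 13, 16 and 14 in standard and 2, 3 and 0 in cold plants. Its mean r was 1.66 ± 0.15 in standard and 4.61 ± 0.79 in cold plants (SD, n = 3 each), a difference of 2.95 ± 0.57 (SE; limma, adjusted p = 0.0493). In lyrata-labelled plants the corresponding difference of AT5G42830 was 2.04 ± 0.54 (SE; adjusted p = 0.239).

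AAC3 had a higher ratio after dehydration in halleri-labelled plants. Its thaliana allele read 29, 17 and 29 in standard and 6, 8 and 3 in dehydrated plants, and the non-thaliana allele 46, 31 and 75 and 48, 50 and 19. Mean r was 0.94 ± 0.36 and 2.54 ± 0.25 (SD, n = 3 each), a difference of 1.60 ± 0.33 (SE; limma, adjusted p = 0.0430). In lyrata-labelled plants it was 0.18 ± 0.67 (SE; limma, adjusted p = 0.933), and whether the hybrids differed in these ratio changes was not tested. All 3 calls of a changed ratio ended when any 1 of the compared libraries was left out, with adjusted p of 0.0652 to 0.184 for AT1G58280, 0.0652 to 0.181 for AT5G42830 and 0.0627 to 0.105 for AAC3. Total expression of these 3 genes was not called in the same comparisons (adjusted p of 0.955, 0.971 and 0.634).

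**Figure D5:**
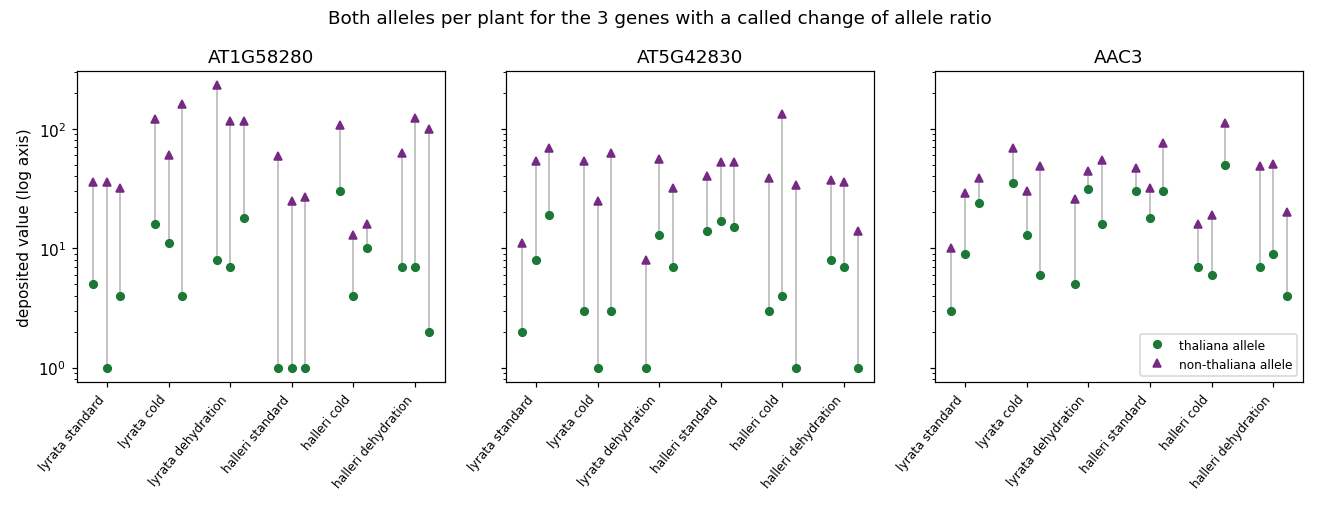
Deposited value of the thaliana (circles) and non-thaliana allele (triangles) in each plant, joined by a line (log axis, 1 added to each as deposited), for the 3 genes with a called change of allele ratio. In halleri-labelled standard plants the thaliana allele of AT1G58280 lies at 1, which is a reading of 0, and in halleri-labelled cold plants that of AT5G42830 lies at 4 or below.

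Gene structure and position, which the ratios did not use, are given beside those of the 7255 genes, with no test. All 77 genes are annotated as protein-coding. Their median coding length was 999 bases against 1119, their median number of exons 4 against 5, and 15.58% against 9.52% had a single exon. Another protein-coding gene overlapped 20.78% of them against 32.13%. They lay on all chromosomes, with 20, 11, 16, 16 and 14 on chromosomes 1 to 5. These were 26%, 14.3%, 20.8%, 20.8% and 18.2% of the genes, against 25.6%, 15.3%, 20.3%, 14.8% and 24% of the 7255. None lay within 10000 bases of another, and 8 lay within 100000 bases, such as BG3 and AT3G57010. No count of this kind was made for the 7255 genes, so nothing about clustering is read from it.

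A copy with at least 85% identity over at least 50% of the coding sequence in Col-0 was found for 6 genes (7.79%, against 7.9% of 7249). These were CYP79F2, which has 92.0% identity to CYP79F1, and ALMT1, c-NAD-MDH2, AT2G20550, AT1G54290 and AT4G17360. AT5G15520 lay just below that limit, with an identity to AT3G02080 that rounds to 85%. RPSAb, GSTU15 and NLM1 were also close below it, with copies at 84.9%, 84.6% and 84.3% identity. For all of these genes reads could be shared with the copy, and how that enters the allele values was not tested. At a lower limit of 80% identity the shares were 29.87% and 19.2%.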

How the data were processed

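RNA was extracted from 1 F1 plant per library and sequenced from TruSeq libraries, per the labels' protocols; 18 libraries form 6 groups of 3 plants. Per the file headers, each file holds a score for 2 alleles per gene, and the deposited score is a scaled, rounded read number with 1 added. Exact depth is unknown except in 5 libraries, where missing whole numbers give an implied total. The submitters' processing notes list TopHat2, SAMtools, DESeq2 and the build TAIR10, with neither version nor role. The labels and headers do not state the method of allele assignment.

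Total expression was the sum of alleles after removing the added 1, scaled by TMM factors coded in R 4.3.3 (30% of log ratios and 5% of means trimmed), as log2(sum + 2), fitted with limma 3.58.1 (eBayes, trend, robust) over 18 libraries and 6 group means, for genes with at least 10 in at least 3 libraries. Allele ratios kept the added 1 and were fitted per hybrid for genes with a mean sum of at least 10. 2-sided p values were adjusted over all genes tested. No count test was used, because the values are scaled. The fits were also run on simulated data in which both alleles of a gene shared their spread between plants. That simulation cannot show how the ratio fit performs at the spread of r seen here.

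The members, lists, motifs and the rule for named genes were chosen with earlier results of these data known. That rule took the 12 largest values of the smaller mean r, the 6 highest sums, genes next to the threshold, list members, up to 3 genes per class and, per comparison, up to 6 called genes or the 2 smallest p. Word boundaries were added to 2 class keywords after false matches were seen. Of 16419 genes, 16404 were found in the TAIR10.1 annotation, the source of names and coordinates, and 15 were not. Coding sequences were compared with BLAST+ 2.17.0 (E value limit 1e-20), using Python 3.11.15 and pandas 2.3.3. Deviations of same-numbered libraries correlated between -0.07 and 0.028 in lyrata-labelled and between -0.106 and 0.173 in halleri-labelled plants. For libraries of different number the ranges were -0.058 to 0.088 and -0.124 to 0.118. The numbers were not taken as pairs, although with 3 plants per group these correlations cannot exclude pairing. A replicate block was run as an alternative.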

Additional observations from a re-analysis of the deposited data

How the results depend on the processing

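Of the 16 named calls, 2 held under every alternative run (AT3G57010 and BBX30 after dehydration in halleri-labelled plants) and 14 were lost under at least 1. Both of these genes reached the minimum mean sum in halleri-labelled plants only through treated plants, so their rise was in part set by the selection. No direction reversed among 26 named results. Counts of the 77 genes called are compared here. After cold in lyrata-labelled plants the count was 0, and 1 with scaling as deposited and 1 with the replicate block. After cold in halleri-labelled plants it was 1, and 0 with 10 added before log2, 4 without the 3 libraries that stood apart and 0 with only the 6 libraries compared. After dehydration it was 1 in lyrata-labelled plants, and 0 with only the 6 libraries; in halleri-labelled plants it was 6, and 3 with the replicate block and 3 with only the 6 libraries. Between hybrids under standard conditions it was 5, and 2 with the block, 0 without the 3 libraries and 0 with only the 6. For ratios in halleri-labelled plants after cold it was 2, and 1 with 0.5 added to each allele, 5 with a mean sum of at least 50, 0 with the block, 0 with only the 6 libraries and 0 without the libraries that stood apart (a setting added after the data were seen). For ratios after dehydration it was 1, and 3 with a mean sum of at least 50, and 0 with the block, with only the 6 libraries and without those libraries. The cause of these shifts was not tested, except that fewer genes were tested at a sum of 50 and fewer samples were used where libraries were left out. With 1 library left out in turn, the counts ranged from 0 to 1 and from 0 to 4 (lyrata-labelled cold and dehydration), from 0 to 3 and from 2 to 8 (halleri-labelled), from 0 to 1 for the cold interaction, from 0 to 5 between hybrids, and from 0 to 1 for each ratio comparison in halleri-labelled plants. The share of all genes called moved as well. Over all alternatives it ran from 0.13% to 1.12% and from 0.0% to 2.53% (lyrata-labelled cold and dehydration), from 0.0175% to 3.43% and from 0.809% to 7.2% (halleri-labelled), and from 0.105% to 4.69% between hybrids. For ratios in halleri-labelled plants it ran from 0.0171% to 4.67% after cold and from 0.0087% to 6.0% after dehydration, where the highest shares are those at a mean sum of 50. The rule itself gave 77 genes, 40 with a mean sum of at least 50, 44 with a mean r of at least 2, and 72 to 84 with 1 library left out. The lowest alleles are near the smallest value the scaling allows, which limits every ratio.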

Other observations

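RbcX1, chosen after its values were seen, had a lower allele ratio after both treatments in both hybrids, without passing the test. In lyrata-labelled plants r was 4.15, 4.15 and 5.04 under standard conditions, 2.38, 0.93 and 2.01 after cold, and 2.73, 0.92 and 2.69 after dehydration. In halleri-labelled plants r was 4.14, 4.49 and 3.52 under standard conditions, 2.75, 2.25 and 2.70 after cold, and 2.34, 2.45 and 2.17 after dehydration. No treated plant overlapped a standard plant of its hybrid, and the comparisons share the standard plants. The differences in limma were -2.67 ± 0.67 and -2.33 ± 0.67 in lyrata-labelled plants (SE; adjusted p = 0.217 and 0.212) and -1.48 ± 0.41 and -1.73 ± 0.41 in halleri-labelled plants (SE; adjusted p = 0.114 and 0.0641), for cold and dehydration. Its thaliana allele read 15, 21 and 4 in lyrata-labelled standard plants 58, 223 and 71 after cold and 15, 106 and 24 after dehydration, so the dehydrated and standard plants overlapped. It read 5, 1 and 10 in halleri-labelled standard plants, 13, 66 and 58 after cold and 69, 69 and 81 after dehydration, without overlap. Over all genes, the change of r after dehydration in lyrata-labelled plants had a median of -0.24.

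AT1G54217, whose lyrata-labelled ratios are given above, also had a lower ratio in every treated than in every standard halleri-labelled plant. Its r was 3.00, 4.58 and 3.32 under standard conditions, 1.44, 2.68 and 1.68 after cold and 2.32, 2.17 and 2.81 after dehydration. The differences were -1.70 ± 0.53 and -1.20 ± 0.53 (SE; limma, adjusted p = 0.153 and 0.244) and did not pass.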
